A study of Mus musculus with 23 samples.

Results

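A set of 10 genes of the ATF4 stress response was followed through all RNA-seq and Ribo-seq libraries of this series: the transcription factor genes Atf4, Atf5, Ddit3 (encoding CHOP) and Cebpg, and the response genes Trib3, Chac1, Ddit4, Sesn2, Asns and Ppp1r15a. They are listed by name as regulators and targets of the response, with earlier results of these data known, and all 10 were found among the 22350 genes counted by RNA-seq, the 22230 genes with coding footprints in organoids and the 22314 genes with footprints in mice. Separate entries for 5′ leaders, the stretch of an mRNA ahead of its coding sequence, were given for 19005 genes in organoid Ribo-seq, and these too included all 10.

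ATF4 is the main effector of the integrated stress response. Kinases that sense amino acid shortage, unfolded proteins, viral RNA or haem shortage phosphorylate the initiation factor eIF2, which lowers translation in general while more ribosomes reach the Atf4 coding sequence past its upstream open reading frames. ATF4 then acts with partners such as C/EBPγ and CHOP on genes for amino acid synthesis and uptake, and the kinase complex mTORC1 is known to raise ATF4 synthesis as well. Raptor, the product of Rptor, is an essential subunit of mTORC1.

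The 23 libraries come from C57BL/6 mice of 8 to 12 weeks and from small intestinal organoids grown from such mice, and every group carries a tamoxifen-inducible Cre. RNA-seq was made from WT organoids (VillinCre.ERT2.RPL22.HA, 2 lines with 2 technical libraries each), from Rptor fl/fl organoids (VillinCre.ERT2.Rptor.fl/fl without the ribosome tag, 2 lines with 2 technical libraries each) and from stem cell enriched (SCe) cultures of tagged WT organoids (3 cultures). Ribo-seq, which sequences the mRNA fragments that ribosomes protect, was made from 3 Rptor fl/fl cultures (VillinCre.ERT2.Rptor.fl/fl.RPL22.HA) and 3 SCe cultures, and from the small intestine of 3 WT mice (Lgr5Cre.ERT2.RPL22.HA) and 3 Rptor fl/fl mice (Lgr5Cre.ERT2.Rptor.fl/fl.RPL22.HA) 24 h after tamoxifen. VillinCre acts throughout the intestinal epithelium and Lgr5Cre in intestinal stem cells. The HA tag on the ribosomal protein RPL22 appears in the cells where Cre acts, and Ribo-seq lysates were enriched on an antibody to that tag, with cycloheximide at 100 µg/ml to hold the ribosomes. WT and Rptor fl/fl organoids were grown in ENR medium, while SCe medium held in addition 10 µM CHIR 99021 and 1.5 mM valproic acid, so between Rptor fl/fl organoids and SCe cultures the deletion and the medium cannot be told apart, while SCe cultures and WT organoids, both with intact Rptor, differ in medium. WT and Rptor fl/fl RNA-seq organoids differ in the ribosome tag as well as in Rptor, and those cannot be told apart either.

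The leaders of these genes show why footprints were read separately ahead of and within the coding sequence. In the transcript with most RNA-seq reads (GENCODE vM21, mm10), the Atf4 leader of 594 bases held ATG-started frames of 36, 3 and 59 codons, and the last began at base 498 and ran 83 bases into the coding sequence in another frame. The Atf5 leader of 373 bases had the same arrangement, with a frame of 3 codons at base 122 and one of 58 codons at base 253 that ran 56 bases into the coding sequence. Footprints on these shared 83 and 56 bases lie in the coding entries. For Atf4 and Atf5, coding counts can therefore include ribosomes on the upstream frame. The windows below cover the short upstream frame, the start of the overlapping frame and the coding start of Atf4, on the plus strand of chromosome 15, and the 2 corresponding upstream windows of Atf5, on the minus strand of chromosome 7. Capitals mark the ATG and, where the short frame ends inside the window, its stop codon.
Atf4 short upstream frame, chr15:80255573-80255602: gcggccaccATGgcgtatTAGaggcagcag
Atf4 overlapping upstream frame, chr15:80255672-80256222, exon ends joined: gcctaagccATGgcgctcttcacgaaatcc
Atf4 coding start, chr15:80256290-80256319: ccccacaacATGaccgagatgagcttcctg
Atf5 short upstream frame, chr7:44816517-44816546: gcccgcgcaATGgctctgTAGccgcgaccc
Atf5 overlapping upstream frame, chr7:44815267-44816415, exon ends joined: ttcgccgccATGgagtcctccaccttcgcc
The other members differed in their leaders. Ddit3 had a frame of 34 codons, with a second ATG that left 31, within a leader of 186 bases. Ppp1r15a (encoding GADD34, which directs dephosphorylation of eIF2) had frames of 45, 34 and 26 codons within 283 bases. Sesn2 had 1 frame of 22 codons, Asns a frame of 14 codons with an ATG inside it that left 13, and Cebpg a frame of 1 codon, an ATG directly followed by a stop. Ddit4, Trib3 and Chac1 had no upstream ATG in leaders of 198, 176 and 174 bases. Among all 44615 transcripts with a leader entry, 64.4% held an upstream ATG and 23.2% held a frame that ran into the coding sequence in another frame. The Ddit3 and Ppp1r15a windows are given because the counts on these 2 genes are discussed with their leaders further on, and capitals again mark the upstream ATG.
Ddit3 upstream frame, chr10:127290820-127290849, plus strand: gattatatcATGttgaagatgagcgggtgg
Ppp1r15a upstream frame, chr7:45526069-45526098, minus strand: gagggcgacATGaacccgctggcttcgcga

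ATF4 and C/EBP proteins bind as pairs to composite elements, and the letters TGATGNAA were searched on both strands of 300 bases around each annotated start site (250 before and 50 after, RefSeq on GRCm38.p6). All 10 members were matched, with 11 start sites because Atf5 has 2. A match was present for 3 of the 10, against 3.97% of 32851 promoters in the genome. A match is a description of letters and not evidence of binding. The windows of these 3 are shown because Trib3, Chac1 and Asns recur in the results, with the matched letters in capitals as they read on the strand of the gene.
Chac1 promoter, chr2:119351038-119351067, plus strand, element on the opposite strand 193 bases before the start site: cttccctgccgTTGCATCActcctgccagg
Trib3 promoter, chr2:152344028-152344057, minus strand, element on the opposite strand from base 15 of the transcript: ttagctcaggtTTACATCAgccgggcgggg
Asns promoter, chr6:7693214-7693243, minus strand, element on the gene's own strand 23 bases before the start site: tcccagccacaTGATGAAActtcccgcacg

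Depth and identity of the libraries were examined first. RNA-seq libraries held 23802944 to 67598878 reads, organoid Ribo-seq libraries 6240746 to 8584977 (Rptor fl/fl) and 1169578 to 4372286 (SCe), and mouse Ribo-seq libraries 772077 to 8238388. Values are given as CPM, estimated counts scaled to a common library size after TMM normalisation, and a gene is said to rise or fall where edgeR's quasi-likelihood test gave a Benjamini-Hochberg adjusted p under 0.05 over all genes tested. Rptor RNA was 51.4 and 47.8 CPM in WT lines and 14.9 and 15.4 CPM in Rptor fl/fl lines. Rptor footprints were 17.4, 19.0 and 16.2 CPM in the organoid libraries labelled Rptor fl/fl and 14.7, 41.4 and 20.9 CPM in SCe libraries. These groups overlapped (log2 change -0.53, adjusted p = 0.318), so the organoid Ribo-seq libraries are called by their label. In mice, Rptor footprints were 32.5, 34.4 and 37.2 CPM in Rptor fl/fl and 40.6, 39.3 and 44.9 CPM in WT, which did not overlap but did not pass (log2 change -0.28, adjusted p = 0.15). The mouse libraries are called by their label too. SCe culture 1 stood apart in both assays. The mean chi-square per gene was 207 and 186 against SCe RNA cultures 2 and 3, which differed from each other by 21.2, and it was 22.7 and 50.8 against SCe Ribo-seq cultures 2 and 3, which differed by 10.0. Member calls that rest on SCe cultures are therefore given with and without that culture, while list and marker counts, levels per length and correlations include it. The labels do not say whether replicate cultures came from separate animals, so p-values measure the spread between these samples only.

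In Rptor fl/fl organoids the RNA of most ATF4 response genes was lower than in WT organoids, by 7.29-fold for Trib3, 7.08-fold for Chac1, 3.32-fold for Ddit4 and 1.46-fold for Atf4 itself. By edgeR's test 8 of the 10 genes fell and 0 rose, where 11% of all 14131 genes tested fell and 22.6% changed in either direction. The median log2 change of the 10 genes was -0.95, beside -0.0049 over all genes tested. The groups lay apart, with both Rptor fl/fl lines below both WT lines, for 8 of the 10 genes and for 34.1% of all genes tested, and above them for 0 of the 10 and 34.7% of all. These are bulk samples, in which fewer cells of a type and less RNA per cell cannot be told apart.

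Among the transcription factor genes, Atf4 RNA was 278 and 227 CPM in WT lines and 179 and 168 CPM in Rptor fl/fl lines. The groups did not overlap, and the log2 change was -0.55 (SE 0.112, edgeR adjusted p = 0.0332). Atf5, which encodes a close relative of ATF4 with similar leader frames, had 70.5 and 65.3 CPM in WT and 28 and 31 CPM after deletion. Both Rptor fl/fl lines lay far below both WT lines (log2 change -1.21, SE 0.0874, edgeR adjusted p = 0.0089). Ddit3, the gene for the pro-apoptotic partner CHOP, fell from 19.7 and 11.1 CPM to 6.81 and 6.52 CPM (log2 change -1.22, SE 0.287, edgeR adjusted p = 0.0440). The WT lines differed from each other by more than the Rptor fl/fl lines did, and the lower WT line still lay above both. Cebpg, whose product pairs with ATF4 on DNA, had 120 and 115 CPM in WT and 89.5 and 93.0 CPM after deletion. This was the smallest of the falls (log2 change -0.37, SE 0.0581, edgeR adjusted p = 0.0201).

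Among the response genes, Trib3, which encodes a pseudokinase that binds ATF4 and CHOP, had 31.5 and 18.2 CPM in WT and 3.32 and 3.51 CPM after deletion (log2 change -2.87, SE 0.298, edgeR adjusted p = 0.0111). Chac1, the gene for a glutathione-degrading enzyme, had 19.2 and 11.8 CPM in WT and 2.46 and 1.95 CPM after deletion (log2 change -2.82, SE 0.290, edgeR adjusted p = 0.0111). For both genes the WT lines differed widely while both Rptor fl/fl lines lay far below them. Ddit4, which encodes the mTORC1 inhibitor REDD1, went from 146 and 126 CPM to 41.9 and 40.4 CPM (log2 change -1.73, SE 0.0888, edgeR adjusted p = 0.0057). Asns, which encodes asparagine synthetase, went from 173 and 163 CPM to 116 and 91.7 CPM (log2 change -0.70, SE 0.119, edgeR adjusted p = 0.0233). Sesn2, the gene for the leucine-binding mTORC1 inhibitor sestrin 2, and Ppp1r15a did not pass. Sesn2 had 23.5 and 19.4 CPM in WT and 22.0 and 15.0 CPM after deletion, so the groups overlapped (log2 change -0.22, 95% interval -0.76 to 0.32, adjusted p = 0.476). Ppp1r15a had 20.5 and 12.4 CPM in WT and 12.6 and 11.4 CPM after deletion, and these also overlapped (log2 change -0.46, 95% interval -1.11 to 0.20, adjusted p = 0.244).

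**Figure D1:**
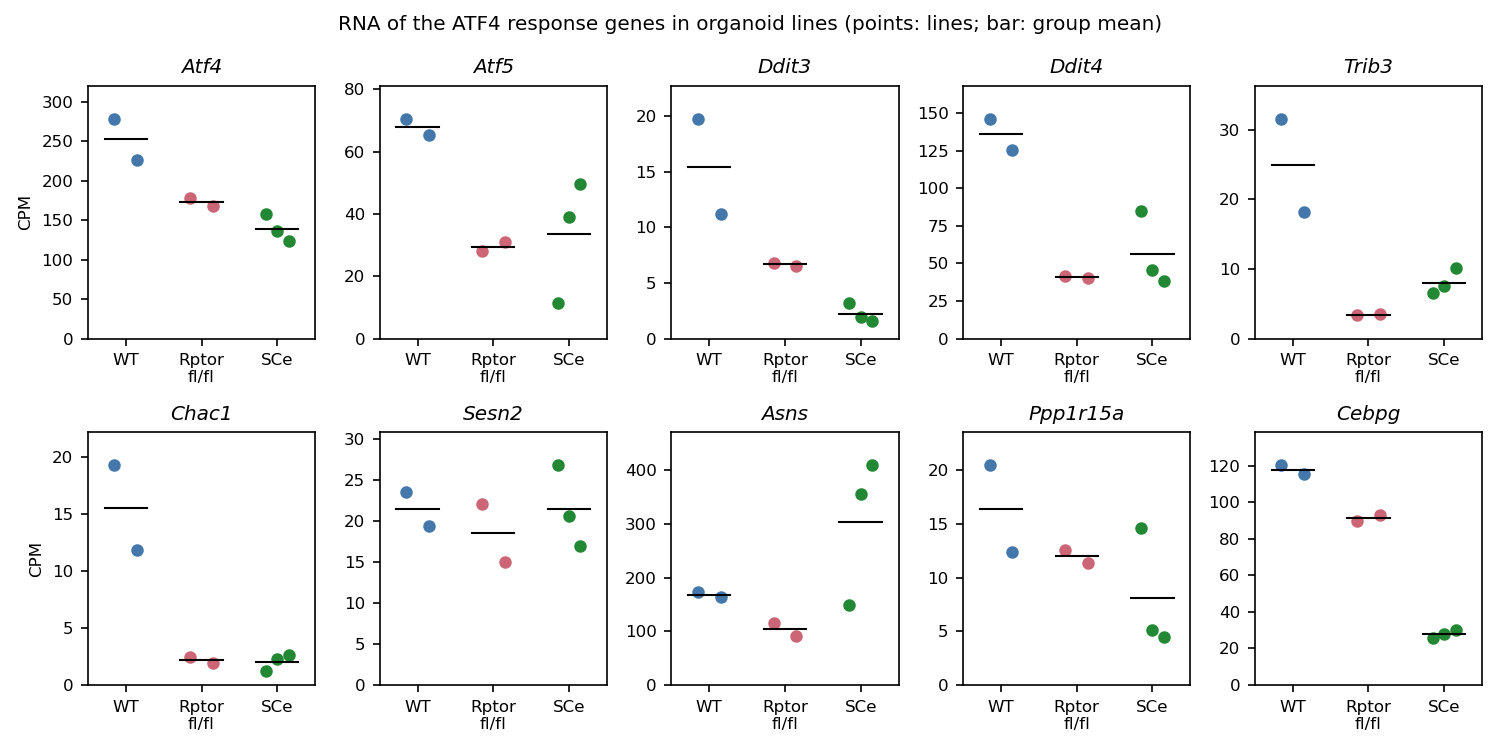
RNA of each gene in CPM (vertical axes, each from 0) in WT, Rptor fl/fl and SCe organoids, where a point is a line or culture and a bar the group mean. Both WT lines lie above both Rptor fl/fl lines for 8 genes, and the SCe points of Asns spread from 149 to 409 CPM.

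The number of calls rested on single lines, since each group had 2. Leaving out WT line 1 left 4 calls, Atf5, Ddit4, Trib3 and Chac1, and leaving out WT line 2, Rptor fl/fl line 1 or Rptor fl/fl line 2 left 6, 5 and 6, always with those 4 among them. Markers of other cell types moved with the same contrast: 7 of 8 Paneth cell markers fell (summed level 4986 to 6187 CPM in WT and 892 to 1842 CPM after deletion), 5 of 7 stem cell markers fell, and 4 of 7 goblet cell markers rose (1759 to 1898 CPM against 3115 to 4267 CPM). Enterocyte markers summed to 7628 to 8263 CPM in WT and 6589 to 9857 CPM after deletion, with 1 of 9 called lower. The part of these cell types in the fall of the ATF4 response genes was not tested.

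Other genes of the pathway were counted from lists of general knowledge, beside 11% of all genes tested that fell and 11.6% that rose. A serine, glycine and one-carbon list held 11 genes that ATF4 is known to act on, among them Aldh18a1, a gene of proline synthesis. Of these genes 6 fell and 0 rose in Rptor fl/fl organoids. The one with the smallest adjusted p was Psph, which encodes phosphoserine phosphatase (log2 change -1.69, SE 0.0927, edgeR adjusted p = 0.0057). Of 11 amino acid transporter genes 4 fell and 0 rose, led by the cystine transporter gene Slc7a11 (log2 change -2.69, edgeR adjusted p = 0.0057). Of 11 aminoacyl-tRNA synthetase genes found, 5 fell and 0 rose, led by Tars (log2 change -0.47, edgeR adjusted p = 0.0142). Among 20 other ATF4 and CHOP targets tested, 6 fell, with Sesn3 at a log2 change of -1.51 (edgeR adjusted p = 0.0104), and 2 rose, with the pro-apoptotic gene Bbc3 at 0.99 (edgeR adjusted p = 0.0165). Upstream of ATF4, of 15 genes for eIF2 kinases, eIF2 and eIF2B, Eif2ak3, the gene for the kinase PERK, rose (log2 change 0.44, edgeR adjusted p = 0.0202), Eif2ak1 fell (-0.24, edgeR adjusted p = 0.0389) and 13 did not pass.

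In SCe cultures, which have intact Rptor, several members were lower than in WT organoids, and this comparison shares its WT lines with the one above. By edgeR's test 6 of the 10 genes fell and 0 rose, where 19.9% of 14925 genes tested fell 22.4% rose and 42.3% changed either way. The groups lay apart with SCe lower for 7 of the 10, beside 35% of all genes tested. Ddit3 was 3.17, 1.96 and 1.62 CPM in SCe cultures against 19.7 and 11.1 CPM in WT (log2 change -2.78, SE 0.392, adjusted p = 0.0060). Cebpg was 25.9, 28.2 and 30.3 CPM against 120 and 115 CPM (log2 change -2.05, SE 0.0869, adjusted p = 0.0011), and Chac1 was 1.20, 2.27 and 2.59 CPM against 19.2 and 11.8 CPM (log2 change -2.91, SE 0.393, adjusted p = 0.0055). None of these groups overlapped. Trib3 (6.5, 7.49 and 10.1 CPM, log2 change -1.61, adjusted p = 0.0131), Ddit4 (84.7, 45.6 and 38.1 CPM, log2 change -1.26, adjusted p = 0.0419) and Atf4 (158, 136 and 124 CPM, log2 change -0.84, adjusted p = 0.0095) fell as well. Asns was 149 CPM in SCe culture 1 and 355 and 409 CPM in cultures 2 and 3, which lie on either side of the WT lines (log2 change 0.88, adjusted p = 0.169). Without culture 1 Asns was higher than in WT (log2 change 1.20), and Atf5 (-0.60) and Ppp1r15a (-1.76) passed as lower, which made 9 of 10 calls. In that setting 9530 of all 14855 genes tested passed. Leaving out WT line 1 left 3 calls, Ddit3, Chac1 and Cebpg, and Ddit4 lost its call also without WT line 2 or SCe culture 2 or 3. Markers of other cell types were lower in SCe cultures in the same contrast: goblet cells 5 of 7 (1759 to 1898 CPM in WT and 246 to 480 CPM in SCe), enteroendocrine cells 6 of 7 (207 to 302 CPM and 2.10 to 27.0 CPM), tuft cells 3 of 4 tested with 1 higher, stem cells 2 of 7 and enterocytes 1 of 9. Of 8 Paneth cell markers 1 was higher. Enterocyte markers summed to 744 CPM in SCe culture 1 and to 6748 and 7703 CPM in cultures 2 and 3. The part of these cell types in the member calls was not tested.

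Rptor fl/fl and SCe organoids were then set against each other in RNA. Ddit3 and Cebpg were higher in Rptor fl/fl organoids (log2 change 1.58, SE 0.329, adjusted p = 0.0162, and 1.70, SE 0.0911, adjusted p = 0.0010) and Trib3 and Asns were lower (-1.23, SE 0.250, adjusted p = 0.0149, and -1.55, SE 0.457, adjusted p = 0.0444, all by edgeR). These 2 rises and 2 falls among 10 genes stand beside 21% of 15103 genes tested that rose, 21.8% that fell and 42.7% that did either. With SCe culture 1 left out, 9101 of all 14953 genes tested passed. Atf4 RNA lay apart (179 and 168 CPM against 158, 136 and 124 CPM) without passing (log2 change 0.32, 95% interval 0.013 to 0.62, adjusted p = 0.0857). Without SCe culture 1, 7 genes passed, adding Atf4 (0.42), Atf5 (-0.59) and Ppp1r15a (1.32), while leaving out SCe culture 2 left 2 calls and leaving out either Rptor fl/fl line left 1, Cebpg. Here 6 of 7 goblet, 3 of 5 tuft, 3 of 7 enteroendocrine and 1 of 9 enterocyte markers tested were higher in Rptor fl/fl organoids, 3 of 8 Paneth cell markers were lower, and of 7 stem cell markers 2 were higher and 3 lower, and their part in these values was not tested.

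Levels were compared between genes only per length, as CPM per kilobase of transcript. In WT organoids Atf4 was highest at 171 ± 24.8 (SD, n = 2), followed by Asns at 96.5 ± 3.85 and Ddit4 at 90.3 ± 9.66, and these last did not differ beyond their spread. Atf5 (43.7 ± 2.05), Cebpg (30.8 ± 1.1), Ddit3 (24.2 ± 9.34), Trib3 (14.0 ± 5.32), Chac1 (11.2 ± 3.77), Ppp1r15a (8.25 ± 3.31) and Sesn2 (6.64 ± 0.909) came next, and from Cebpg downward each neighbour overlapped the next. In Rptor fl/fl organoids Atf4 stayed first at 118 ± 4.74, and Trib3 (1.92 ± 0.0776) and Chac1 (1.59 ± 0.261) stood last. In SCe cultures Asns came first at 174 ± 78.4 and Atf4 second at 94.3 ± 11.6 (n = 3), with ranges that overlapped.

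Across the 7 organoid RNA samples the genes did not vary as one block. The correlation of each gene with the mean of the other 9, on standardised log2 CPM, was highest for Chac1 (Pearson r = 0.931) and Atf4 (0.910), intermediate for Ddit4 (0.850), Ddit3 (0.793) and Trib3 (0.765), and lowest for Sesn2 (0.193) and Asns (-0.301). These points share libraries, depth and 3 group means, and r is given as a description. Of 15168 genes, those whose pattern was most like the mean of the 10 were Ube2j2 (r = 0.990), Sipa1l1 (0.987), Bmpr1a (0.984), Egln1 (0.984) and Ireb2 (0.983), each highest in the WT lines. Their range was narrow, for example 41.2 to 54.8 CPM for Ube2j2.

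Ribosome footprints on the coding sequences were compared between Rptor fl/fl and SCe organoids as well. In the organoid libraries labelled Rptor fl/fl, footprints on Atf4 were 2.82-fold, on Chac1 3.84-fold, on Trib3 2.51-fold and on Cebpg 2.05-fold those in SCe libraries. Of the 10 genes 8 had enough counts to be tested, 4 rose and 0 fell, where 6.63% of 10817 genes tested rose and 16.5% changed either way. The groups lay apart with the Rptor fl/fl-labelled libraries higher for 6 of the 10 genes, counting the untested Ppp1r15a, and for 21.7% of all genes tested. They lay apart in the other direction for 0 of the 10 and for 17.9% of all.

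Atf4 footprints were 76.6, 54.3 and 57.8 CPM in the Rptor fl/fl-labelled libraries and 13.2, 22.8 and 28.1 CPM in SCe libraries (log2 change 1.49, SE 0.280, edgeR adjusted p = 0.0090). Chac1 had 17.4, 11.4 and 14.2 CPM against 2.63, 3.38 and 4.37 CPM (log2 change 1.94, SE 0.343, edgeR adjusted p = 0.0069). Trib3 had 26.1, 18.5 and 20.1 CPM against 6.84, 7.61 and 9.90 CPM (log2 change 1.33, SE 0.266, edgeR adjusted p = 0.0117). For these 3 genes the lowest library labelled Rptor fl/fl was well above the highest SCe library. The SCe values rest on few counts: 25, 27 and 122 for Atf4, 5, 4 and 19 for Chac1, and 13, 9 and 43 for Trib3. Cebpg had 49.9, 54.5 and 63.5 CPM against 19.5, 33.8 and 27.4 CPM (log2 change 1.04, SE 0.227, edgeR adjusted p = 0.0164), again apart. Atf5 had 18.1, 9.32 and 11.6 CPM against 5.26, 3.38 and 8.29 CPM, which lay apart without passing (log2 change 1.04, 95% interval 0.14 to 1.95, adjusted p = 0.110). Its SCe values rest on 10, 4 and 36 counts.

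Ddit4, Sesn2 and Asns overlapped between the groups. Ddit4 had 167, 137 and 136 CPM against 81.0, 155 and 59.8 CPM (log2 change 0.56, adjusted p = 0.257). SCe culture 2 was the high one, and without it Ddit4 passed as higher in the Rptor fl/fl-labelled libraries (1.03). Sesn2 had 12.4, 8.68 and 8.03 CPM against 6.84, 7.61 and 8.75 CPM (log2 change 0.27, adjusted p = 0.601). Asns had 303, 267 and 273 CPM against 282, 235 and 500.2 CPM (log2 change -0.31, adjusted p = 0.464), with the highest value in SCe culture 3.

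**Figure D2:**
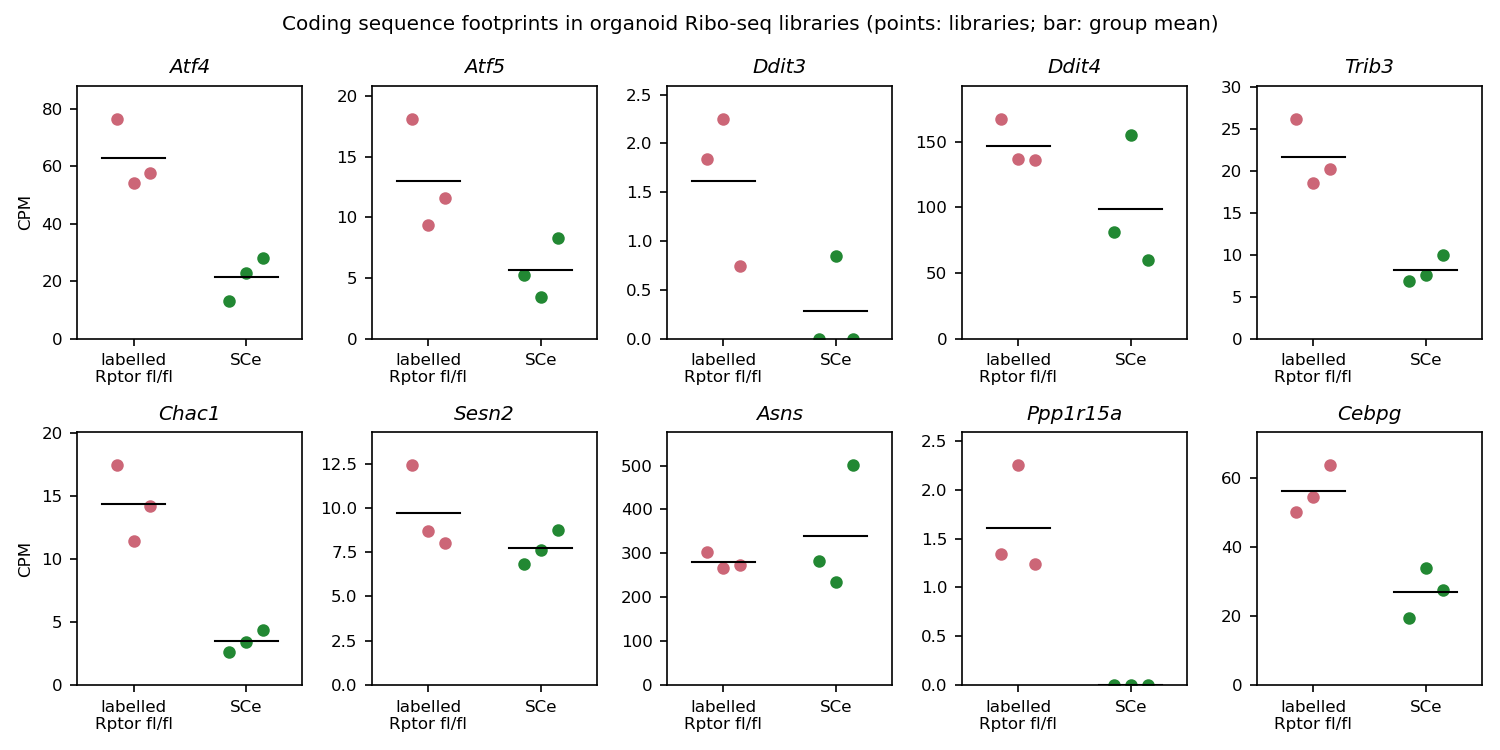
Coding sequence footprints of each gene in CPM (vertical axes, each from 0) in the 3 organoid Ribo-seq libraries labelled Rptor fl/fl and the 3 SCe libraries, with bars at the group means. The groups lie apart for Atf4, Atf5, Trib3, Chac1, Ppp1r15a and Cebpg.

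Ppp1r15a and Ddit3 had too few footprints for the test. Ppp1r15a had 8, 14 and 10 counts in the Rptor fl/fl-labelled libraries and 0 in each SCe library, which makes it at least 3.79-fold higher against a floor of 3 counts over the SCe group. Ddit3 had 11, 14 and 6 counts against 0, 1 and 0, a depth-adjusted ratio of 11 (95% counting interval 1.84 to 449). Intervals and floors cover counting error only, since reads without molecular identifiers are not independent molecules.

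The 4 calls did not rest on SCe culture 1, without which 4 genes passed as well, Atf4 at a log2 change of 1.23. Leaving out culture 3 labelled Rptor fl/fl left 2 calls, and an offset for effective length left 1. Markers that moved with this contrast were those of goblet cells (7 of 7 higher, 3260 to 5290 CPM against 1173 to 1531 CPM), enterocytes (4 of 9 higher, 9366 to 9827 CPM against 1647 to 4404 CPM), enteroendocrine cells (4 of 7 higher), tuft cells (2 of 3 tested higher, 13.8 to 26 CPM against 3.22 to 8.45 CPM), stem cells (1 of 7 higher and 3 lower) and Paneth cells (1 of 7 higher and 1 lower, 6350 to 9411 CPM against 3461 to 6101 CPM). Their part in the footprint changes was not tested.

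Translation efficiency was tested as the difference between the footprint and the RNA change from SCe to Rptor fl/fl organoids, in 1 model over both assays. Trib3 was the 1 member of 8 tested that passed, where 1.12% of 10747 genes tested were higher, 1.81% lower and 2.93% changed either way. Its RNA was 2.35-fold lower and its footprints 2.51-fold higher than in SCe cultures, a log2 difference of 2.62 (SE 0.381, edgeR adjusted p = 0.0086). Over the alternatives its adjusted p ranged from 3.54e-07 (DESeq2) to 0.127 (replicate block), and the call was lost with that block and without Rptor fl/fl RNA line 1 (0.0684). Without SCe culture 1 in RNA-seq Chac1 (2.15) and Asns (1.63) passed beside Trib3, without it in Ribo-seq Atf4 (0.97) passed beside Trib3, and without SCe culture 3 in Ribo-seq Atf4 (1.55) passed as well. Chac1 (log2 difference 1.91, 95% interval 0.71 to 3.10, adjusted p = 0.0850), Atf4 (1.22, 95% interval 0.51 to 1.94, adjusted p = 0.0719), Asns (1.30, adjusted p = 0.208), Atf5 (1.26, adjusted p = 0.390), Ddit4 (1.07, adjusted p = 0.275) and Sesn2 (0.53, adjusted p = 0.485) lay above 0 and Cebpg below it (-0.60, adjusted p = 0.220), without passing when all samples were used. Rptor fl/fl organoids carried the HA tag in Ribo-seq and not in RNA-seq, so that for them the tag and the assay cannot be told apart.

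**Figure D3:**
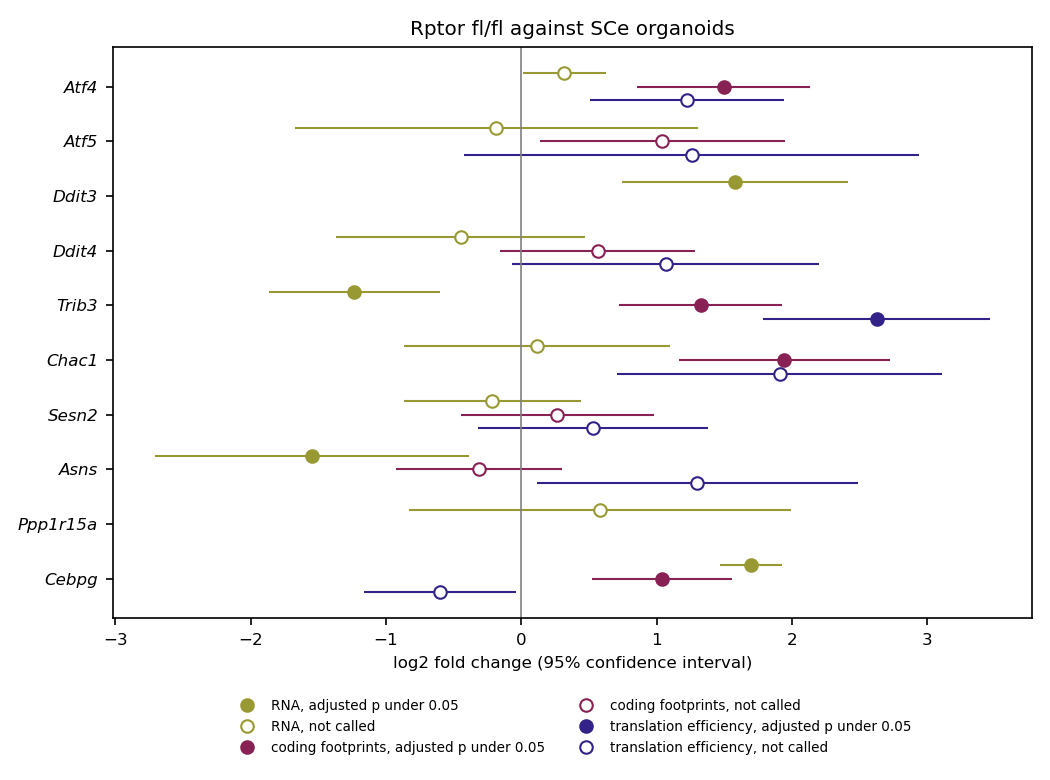
Log2 change from SCe to Rptor fl/fl organoids with 95% confidence intervals (horizontal axis) for RNA, coding footprints and translation efficiency of each gene, with filled points past the threshold. Trib3 lies at -1.23 for RNA and at 1.33 for footprints, and Cebpg is above 0 for both.

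The pathway lists were counted in the same contrast, where 21% of all genes tested were higher and 21.8% lower in RNA. The shares were 6.63% and 9.84% in footprints, and 1.12% and 1.81% in translation efficiency. Of the serine, glycine and one-carbon list, 10 of 11 genes were lower in RNA of Rptor fl/fl than of SCe organoids. The proline synthesis gene Aldh18a1 had the smallest adjusted p (log2 change -0.82), and 0 of these 11 genes changed in footprints. Their translation efficiency rose for 4 of 11, led by Psph (2.39, SE 0.427, adjusted p = 0.0205). Of the amino acid transporter genes 6 of 11 were lower in RNA, with Slc7a11 at -4.01, and 2 of 8 tested were lower in footprints, with Slc7a5, which encodes the leucine transporter LAT1, at -1.36 (adjusted p = 0.0028). Slc7a11 rose in translation efficiency (3.93, adjusted p = 0.0077), the 1 call of 8. The aminoacyl-tRNA synthetase genes gave 2 of 11 lower in RNA (Gars at -1.55), 0 in footprints and 0 in translation efficiency. Among other ATF4 and CHOP targets, 8 of 20 were higher in RNA, led by Cebpb (1.73), and 3 lower, led by Sesn3 (-2.22). In footprints 1 of 19 was higher, Soat2 (1.49), and 1 lower, Sesn3 (-0.94), and in translation efficiency 2 were higher, led by Adm2 (4.90, adjusted p = 0.0068), and 1 lower, Tnfrsf10b (-1.19). Of the genes for eIF2 kinases, eIF2 and eIF2B, 1 of 14 rose in footprints, Eif2ak2, the gene for the kinase PKR (0.85, adjusted p = 0.0409).

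Footprints on the 5′ leaders were counted in entries of their own, which took 2.97% to 6.98% of the reads of organoid Ribo-seq libraries. Here CPM are relative to leader reads alone. Leaders of 5 members had enough reads to be tested, and 0 were called by edgeR or by DESeq2, where 1.75% of 3998 genes tested were called higher, 1.78% lower and 3.53% either way by edgeR. At an unadjusted p under 0.05 it was 1 of the 5, Atf4, and 710 of all. The groups lay apart with SCe lower for 3 of the 10 members, counting the untested Chac1, and for 19.7% of all genes tested. They lay apart with SCe higher for 0 and 7.75%. Atf4 leader footprints were 668, 780 and 940 CPM in the Rptor fl/fl-labelled libraries and 391, 281 and 390 CPM in SCe libraries. They lay apart without passing (log2 change 0.94, 95% interval 0.28 to 1.60, edgeR adjusted p = 0.120). Without SCe culture 1 the Atf4 change was 1.05 (edgeR adjusted p = 0.0896), and 0 members passed. Cebpg lay apart as well, at 248, 282 and 265 CPM against 78.2, 126 and 188 CPM (log2 change 0.79, edgeR adjusted p = 0.300). Atf5 (0.64, adjusted p = 0.636), Ddit4 (0.12, adjusted p = 0.921) and Asns (-0.23, adjusted p = 0.790) overlapped. The Atf5 value rested on SCe culture 3, at 369 CPM against 64.0 and 42.1 CPM in cultures 1 and 2, and without it Atf5 passed as higher in the Rptor fl/fl-labelled libraries (2.24). Chac1, which has no upstream ATG, had 2, 4 and 8 leader reads against 0 in each SCe library, at least 1.86-fold higher.

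The share of a gene's footprints that lay on its leader was large for Atf4 and Atf5, and on few reads for Ppp1r15a and Ddit3. Of these genes, only Atf4 and Atf5 held overlapping frames in the transcripts with most RNA-seq reads. In those transcripts the leader and the coding sequence had 594 and 1050 bases for Atf4 and 373 and 852 for Atf5. For Asns they had 169 and 1686 bases. The share, its median over genes and the ranks below were not adjusted for these lengths, so a longer leader can by itself hold a larger share. For Atf4 it was 25.8%, 38.3% and 38.0% in the Rptor fl/fl-labelled libraries and 68.8%, 42.6% and 31.5% in SCe libraries, while the median gene had 9.26%, 9.75% and 8.74% against 15.4%, 12.5% and 6.05%. The SCe value of 68.8% rests on 80 reads (95% Wilson interval 57.9% to 77.8%), from the culture that stood apart, and the groups overlapped. For Atf5 the share was 48.8%, 48.7% and 47.2% against 47.4%, 42.9% and 59.6%, so the groups overlapped. SCe culture 3 was highest (95% Wilson interval 49.2% to 69.1%), and SCe culture 2 had only 7 reads (15.8% to 75%). By the unweighted mean of this share over a group's libraries, Atf5 ranked 137 and Atf4 359 of 3913 genes in the Rptor fl/fl-labelled libraries. In SCe libraries they ranked 136 and 169, with culture 1 included. Cebpg had 13.6% to 18.3% against 18.4% to 22.9%, Ddit4 8.19% to 12.4% against 5.80% to 25.2%, and Asns 4.23% to 5.35% against 3.08% to 9.78%. A test of leader against coding footprints within each library called 0 of 3913 genes by edgeR, with 463 at an unadjusted p under 0.05, and DESeq2 was not run on it. The 5 members tested had log2 differences from -0.49 (Atf4, 95% interval -1.35 to 0.37, adjusted p = 0.657) to 0.23 (Asns, adjusted p = 0.823). Without SCe culture 1 the Atf4 difference was -0.13 (edgeR adjusted p = 0.916), and 0 genes passed.

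**Figure D4:**
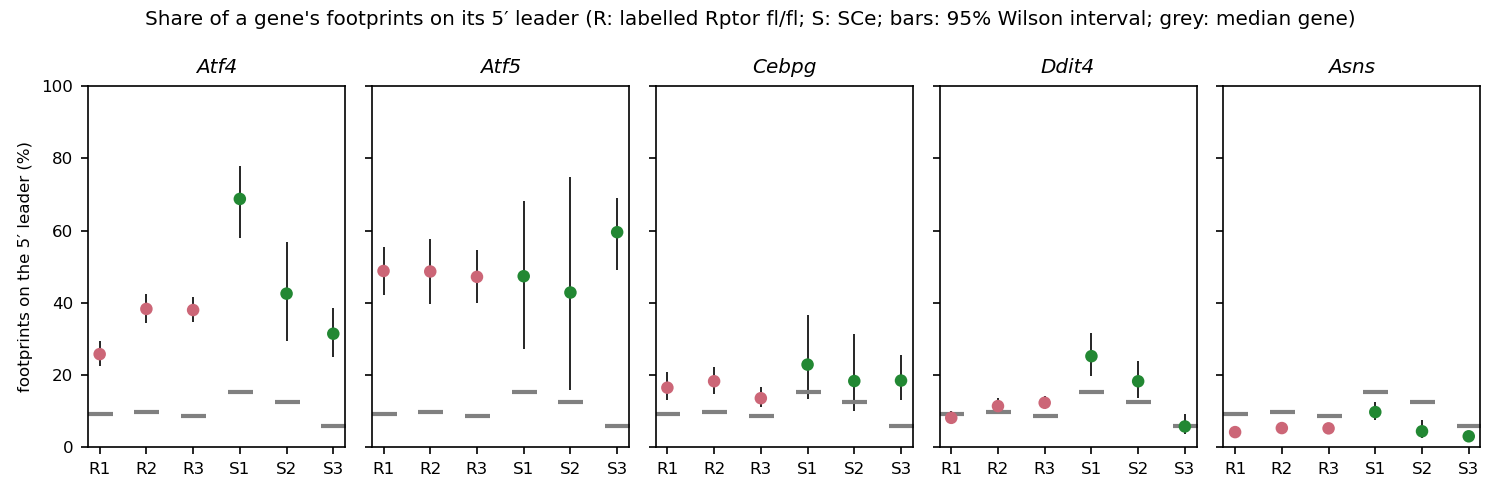
Share of each gene's organoid footprints that lay on its 5′ leader, in percent (vertical axis), by library, with 95% Wilson intervals and a grey line at the median of 3913 genes. The Atf4 and Atf5 shares lie above the grey line in all 6 libraries, and the Asns shares lie below it. Shares are not adjusted for the lengths of leader and coding sequence.

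Ddit3 was counted under a pair of gene identifiers. The second, ENSMUSG00000116429.1, is a coding entry of 105 bases that is identical to bases 56 to 160 of the main Ddit3 transcript, the upstream frame of 34 codons whose start is printed above. Both it and the Ddit3 leader entry hold those bases, so the authors' counting had to divide reads between them. The second identifier had 19, 17 and 25 reads in the Rptor fl/fl-labelled libraries and 3, 4 and 0 in SCe libraries, a depth-adjusted ratio of 3.10 (95% counting interval 1.42 to 8.02). Leader reads were 0, 13 and 3 against 1, 1 and 0, and coding reads 11, 14 and 6 against 0, 1 and 0. Summed, the upstream region held 19, 30 and 28 reads against 4, 5 and 0, more than the coding sequence in each of the 3 libraries labelled Rptor fl/fl. For Ppp1r15a the leader held 9, 1 and 17 reads against 2, 2 and 19, with the highest value in SCe culture 3, which had 0 coding reads. The upstream frame whose start is shown above is 1 of its 3.

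In mice 24 h after tamoxifen, 8 of the 9 members tested did not pass for a footprint difference between Rptor fl/fl and WT. The other member, Trib3, fell 1.92-fold and 0 rose by edgeR, where 5.97% of 11515 genes tested fell, 7.47% rose and 13.4% changed either way. Trib3 was 9.84, 17.6 and 10.3 CPM in WT mice and 6.57, 5.78 and 7.01 CPM in Rptor fl/fl mice, which did not overlap (log2 change -0.94, SE 0.258, adjusted p = 0.0249). The call rested on 8 to 56 counts per library. Without WT mouse 2 it was lost (log2 change -0.64, adjusted p = 0.173, the highest over all alternatives, with 0.0104 the lowest), as it was without Rptor fl/fl mouse 2 or 3 and by DESeq2. Ddit4 was 23.4, 19.4 and 22.7 CPM in WT and 30.2, 24.3 and 31.5 CPM in Rptor fl/fl, which lay apart in the other direction without passing (log2 change 0.40, 95% interval 0.070 to 0.73, adjusted p = 0.106).

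The remaining genes overlapped. Atf4 had 63.9, 54.2 and 56.3 CPM in WT and 49.9, 45.6 and 58.1 CPM in Rptor fl/fl (log2 change -0.15, 95% interval -0.40 to 0.11, adjusted p = 0.488), where entries for mice cover leader and coding sequence together. Asns had 44.3, 47.0 and 50.6 CPM against 48.6, 47.8 and 45.8 CPM (log2 change -0.05, adjusted p = 0.848), and Cebpg 34.4, 29.8 and 29.3 CPM against 31.5, 28.6 and 31.2 CPM (log2 change -0.0028, adjusted p = 0.997). Both were nearly level across the 6 mice. Atf5 (6.33 to 11.1 CPM in WT, 6.90 to 7.61 CPM in Rptor fl/fl), Ddit3 (3.69 to 7.68 CPM, 1.97 to 5.17 CPM), Sesn2 (6.15 to 11.7 CPM, 7.61 to 11.3 CPM) and Ppp1r15a (2.26 to 6.15 CPM, 1.64 to 3.57 CPM) had adjusted p-values from 0.484 to 0.985. Chac1 had 0, 1 and 4 counts in WT and 4, 3 and 5 in Rptor fl/fl, too few for the test, with a depth-adjusted ratio of 1.35 (95% counting interval 0.441 to 4.87).

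**Figure D5:**
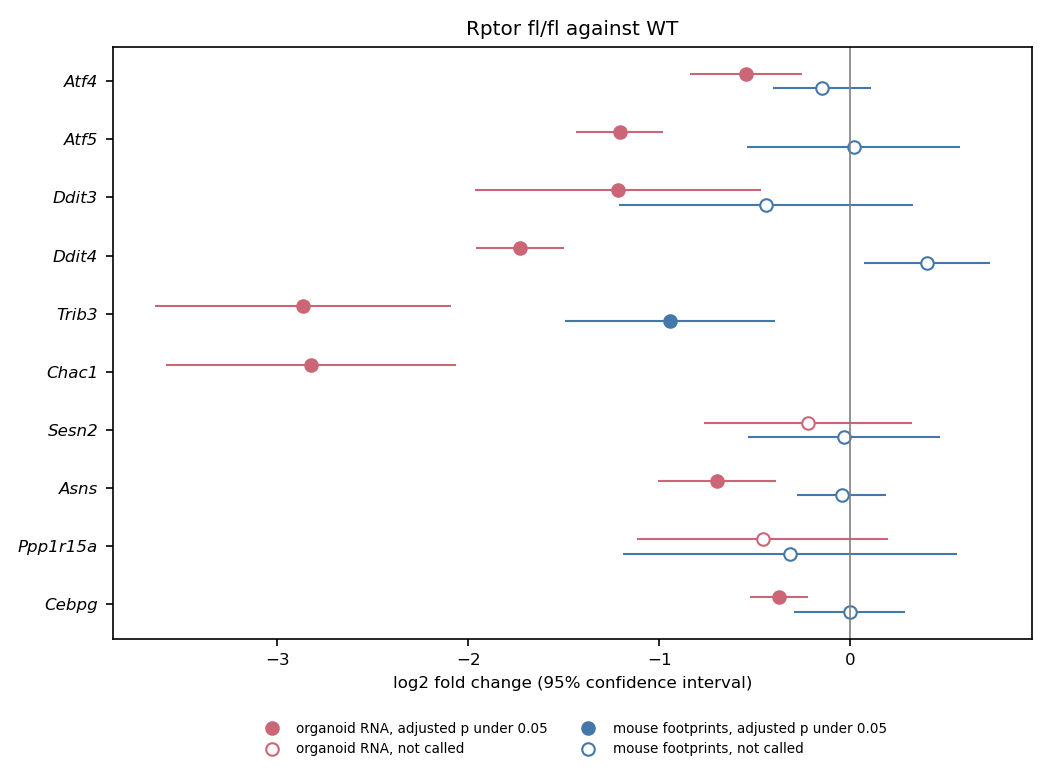
Log2 change from WT to Rptor fl/fl with 95% confidence intervals (horizontal axis) for organoid RNA and mouse footprints of each gene, with filled points past the threshold. Organoid values reach -2.87 for Trib3, and mouse values lie between -0.94 (Trib3) and 0.40 (Ddit4).

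The mouse libraries held footprints of many cell types beside stem cells, whose 7 markers summed to 476 to 766 CPM. Enterocyte markers summed to 53239 to 54700 CPM in WT and 58805 to 65323 CPM in Rptor fl/fl, with 3 of 9 called higher and 1 lower. Over both groups, immune cell markers summed to 3609 to 3986 CPM, pancreatic acinar markers to 2868 to 7152 CPM and smooth muscle markers to 1288 to 1523 CPM. Every marker of these 4 lists was detected. Paneth cell markers were 9514 to 10689 CPM in WT and 5405 to 8907 CPM in Rptor fl/fl, with 4 of 7 called lower, goblet cell markers had 4 of 7 called higher and stem cell markers 2 of 7 lower. The part of these cells in the values above was not tested. The pathway lists stand beside 7.47% of all genes tested that were higher and 5.97% that were lower. The serine, glycine and one-carbon list had 1 of 10 tested higher, the proline synthesis gene Aldh18a1 (log2 change 0.26, edgeR adjusted p = 0.0264). Other ATF4 and CHOP targets had 1 of 16 lower, Nupr1 (-0.95, edgeR adjusted p = 0.0044). Transporter genes (7 tested), aminoacyl-tRNA synthetase genes (11) and the eIF2 group (15) had 0 calls by edgeR.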

How the data were processed

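RNA-seq (TruSeq stranded mRNA) and Ribo-seq libraries were grouped by their labels, which call WT and Rptor fl/fl samples untreated, whereas the study's methods describe tamoxifen induction. The authors trimmed with cutadapt 1.18, removed rRNA fragments and quantified with Salmon 1.1.0 against GENCODE vM21 protein-coding sequences (mm10 in the submitters' processing notes). The values deposited by the authors and used here are estimated counts, which need not be whole. RNA entries are transcripts, organoid Ribo-seq has separate coding and leader entries, and mouse entries mostly span both. A RiboDiff table of the authors' own translation efficiency ratios, log2 changes and p-values was not used.

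For each gene the entries were added and the sum was rounded. Technical libraries of a line were added too, since they differed less (mean chi-square per gene 2.07 to 4.93) than lines of a group did. With edgeR 4.0.16 (R 4.3.3), genes passing filterByExpr were scaled by TMM and tested by quasi-likelihood with Benjamini-Hochberg adjustment at 0.05, where the study's methods name DESeq2. Translation efficiency is the assay-by-group term of 1 model, and leader against coding the region-by-group term with each library as a block. Scripts were tested on simulated data. Members and lists were chosen with earlier results of these data known. Beside the 10 members, the text names Rptor, per list, comparison and direction at most the gene with the smallest adjusted p, and the 5 genes closest in pattern. Alternatives were DESeq2 1.42.0, RLE size factors, no count filter, a replicate block, leaving out replicates, separate technical libraries, a length offset from the deposited effective lengths, and coding plus leader counts.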

Additional observations from a re-analysis of the deposited data

Results flagged for a closer look

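Trib3 had footprint and RNA changes of opposite sign between Rptor fl/fl and SCe organoids, and the test of the difference itself, the interaction of assay and group in edgeR's quasi-likelihood model, passed at a log2 difference of 2.62 (adjusted p = 0.0086). Its RNA was 3.32 and 3.51 CPM against 6.5, 7.49 and 10.1 CPM, and its coding footprints were 26.1, 18.5 and 20.1 CPM against 6.84, 7.61 and 9.90 CPM. Neither assay overlapped between the groups. The call was lost with a replicate block (2.43, adjusted p = 0.127) and without Rptor fl/fl RNA line 1 (2.57, adjusted p = 0.0684), and over all alternatives the adjusted p ranged from 3.54e-07 to 0.127. Rptor itself was lower in RNA of Rptor fl/fl than of SCe organoids (log2 change -1.89, edgeR adjusted p = 0.0010), while its footprints overlapped (-0.53, edgeR adjusted p = 0.318). Its log2 difference between the assays was 1.43 (95% interval 0.57 to 2.29, edgeR adjusted p = 0.0777), and it passed by DESeq2 (1.42, adjusted p = 0.0037). Whether the RNA-seq and Ribo-seq cultures labelled Rptor fl/fl match in their deletion was not tested, which limits all translation efficiency values.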

How the results depend on the processing

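Of 399 other settings applied to single genes, 366 kept direction and side of the threshold, 11 lost the call, 12 gained it and 10 changed sign, and of 454 that left out a replicate these were 382, 37, 13 and 22. Leaving out 1 replicate at a time reduces the samples. For Rptor fl/fl against WT RNA the 3195 genes and 8 members called became 939 to 2126 genes and 4 to 6 members. For SCe against WT RNA the 6309 genes and 6 members called became 2027 to 9530 genes and 3 to 9 members. For Rptor fl/fl against SCe RNA the 6452 genes and 4 members called became 2509 to 9101 genes and 1 to 7 members. For organoid coding footprints the 1781 genes and 4 members called became 669 to 2682 genes and 2 to 5 members. For translation efficiency the 315 genes and 1 member called became 25 to 951 genes and 0 to 3 members. For mouse footprints the 1547 genes and 1 member called became 897 to 1954 genes and 0 to 1 members. For leader footprints the 141 genes and 0 members called became 4 to 413 genes and 0 to 1 members. For leader against coding the 0 genes and 0 members called became 0 to 42 genes and 0 members. With technical libraries as separate replicates 7208 genes passed for Rptor fl/fl against WT RNA, and 1312 genes and 3 members for translation efficiency. DESeq2 gave 1206 genes and 3 members for translation efficiency and 0 members for mouse footprints. A length offset gave 649 genes and 1 member (Chac1) for organoid coding footprints and 683 genes and 0 members for mouse footprints. Without a count filter 383 genes and 1 member (Atf4) passed for leader footprints and 64 genes for leader against coding, and for leader footprints the median over all genes moved by 0.21 and the share of calls that were higher was 59%, beside 49.6%. Beyond the counts of samples and genes that these settings change by construction, the cause was not tested.

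The labels do not say what a replicate number marks, and the numbers were not taken as pairing. Between samples of the same number, correlations of their deviations were 0.14 to 0.30 in RNA, where no more than 2 numbers have WT counterparts, and -0.088 to 0.034 in footprints. Between samples of different numbers they were -0.30 to 0.23 in RNA. In a group of 2 lines the deviations are equal and opposite by construction. A replicate block raised the calls for Rptor fl/fl against WT RNA from 3195 to 4751 genes, with 8 members as before. It gave 3154 genes for SCe against WT RNA, 3413 genes and 1 member for Rptor fl/fl against SCe RNA, 1228 genes and 4 members for organoid coding footprints, 4 genes and 0 members for translation efficiency (Trib3 lost), 0 members for mouse footprints (Trib3 lost) and 66 genes for leader footprints. It was not run for leader against coding, where the library is already a block, nor was DESeq2.

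Where a sign changed, neither the reported log2 change nor the one of opposite sign passed the test. Of the range ends below, Atf5 at -0.59 in Rptor fl/fl against SCe RNA, without SCe culture 1, kept the reported sign and did pass (edgeR adjusted p = 0.0140). Beside the block, for which Atf5 was 0.46 in Rptor fl/fl against SCe RNA and -0.0034 in mice, Sesn2 was -0.0031 in SCe against WT RNA without a count filter and Asns was 0.43 in organoid coding footprints with a length offset. In mice Cebpg was 0.0028 with RLE size factors and 0.011 without a count filter, Atf5 was -0.024 with DESeq2 and -0.12 with a length offset, and Sesn2 was 0.0091 and 0.0021 under the same settings. When a replicate was left out, signs changed for Rptor fl/fl against WT RNA (Sesn2 from -0.51 to 0.038), SCe against WT RNA (Sesn2 from -0.18 to 0.16), Rptor fl/fl against SCe RNA (Chac1 from -0.15 to 0.33, Sesn2 from -0.50 to 0.039, Atf5 from -0.59 to 0.21), organoid coding footprints (Asns from -0.51 to 0.082), mouse footprints (Cebpg from -0.063 to 0.044, Atf5 from -0.13 to 0.16, Sesn2 from -0.19 to 0.26, Asns from -0.068 to 0.011), leader footprints (Ddit4 from -0.29 to 0.64, Asns from -0.49 to 0.027), leader against coding (Ddit4 from -0.46 to 0.036, Atf5 from -0.70 to 0.97, Cebpg from -0.26 to 0.32, Rptor from -1.27 to 0.0082). Depth limits Ddit3, Ppp1r15a and Chac1, whose footprints fell under the count filter in at least 1 comparison, and Trib3 and Sesn2, whose leader footprints did.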

Other observations

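Chaperone and degradation genes of the endoplasmic reticulum that XBP1 and ATF6 are known to act on, another branch of the unfolded protein response, were lower in RNA of Rptor fl/fl than of WT organoids for 14 of 20 genes, and 0 were higher. The gene with the smallest adjusted p was Sdf2l1, which encodes a cofactor of the chaperone BiP (log2 change -1.10, SE 0.0813, edgeR adjusted p = 0.0089), and the median log2 change of the list was -0.39. Of all genes tested in that contrast, 11% were lower and 11.6% higher. In SCe cultures against the same WT lines 14 of 20 were lower, with Edem1 at -1.03 (edgeR adjusted p = 0.0015), and 1 was higher, Atf6 at 0.39 (edgeR adjusted p = 0.0299). Of all genes tested there, 19.9% were lower and 22.4% higher. Between Rptor fl/fl and SCe organoids 5 of 20 were higher in RNA (Edem1 at 0.63) and 2 lower (Sdf2l1 at -0.83), beside 21% and 21.8% of all genes tested. By edgeR 0 of 19 passed in coding footprints and 0 of 19 in translation efficiency, beside 16.5% and 2.93% of all genes tested. In mice 3 of 20 had fewer footprints in Rptor fl/fl than in WT, led by Pdia4 (log2 change -0.30, edgeR adjusted p = 0.0422), beside 5.97% of all genes tested.

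In SCe cultures set against WT organoids, where 22.4% of all genes tested were higher and 19.9% lower, the counts for several lists lay near or below those shares. Here 3 of 11 genes of the serine, glycine and one-carbon list were higher in RNA and 0 were lower. They were led by Phgdh, which encodes the enzyme that opens serine synthesis (log2 change 0.68, edgeR adjusted p = 0.0220). Of the amino acid transporter genes 5 of 11 were higher, led by the glutamine transporter gene Slc1a5 (0.82, edgeR adjusted p = 0.0045), and 1 was lower, Slc6a9 (-0.80). Of the aminoacyl-tRNA synthetase genes 1 of 11 was higher, Gars (0.94, edgeR adjusted p = 0.0027). Of the eIF2 group 3 of 15 were higher, with Impact, the gene for an inhibitor of the kinase GCN2, at 1.03, and 3 lower, with Nck1 at -0.73. Of other ATF4 and CHOP targets 6 of 20 were lower, led by Vegfa at -1.66, and 1 was higher, Sesn3 at 0.73.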
